A study of Mus musculus with 12 samples.

Results

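The genes of matrix proteases and their inhibitors were taken from the array's gene annotation by family name: the matrix metalloproteinases (MMPs), the ADAMTS proteases, the ADAMTS-like proteins and the tissue inhibitors of metalloproteinases (TIMPs). The rule found 48 genes with 1 transcript cluster each, among 22104 clusters on the array, of which 19509 carried a gene symbol. They were 21 MMP genes, 18 ADAMTS genes, 5 ADAMTS-like genes and the 4 TIMP genes. A transcript cluster is the set of probes that reads the transcripts of 1 gene.

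RNA was measured at day 8 of differentiation in the mouse line 3T3-L1, whose preadipocytes turn into fat-laden adipocytes under a hormone cocktail. Treatment ran from day 0 to day 8 with 4 arms of 3 arrays each: control (DMSO and ethanol), 50 µM of alpha-linolenic acid (ALA) given with 2% albumin free of fatty acids, an inhibitor of delta-6-desaturase (5 µM), and ALA plus the inhibitor, called both below. ALA is a plant omega-3 fatty acid, and delta-6-desaturase adds a double bond to it, the first step on its way to longer omega-3 fatty acids. In each arm the 3 arrays came from cells of passage 6, 7 and 8 of the line, so that each passage holds 4 arrays, 1 per treatment. All arms share the same differentiation cocktail and insulin at 5 µg/ml afterwards. The labels state albumin for the ALA medium and vehicle for control; no label says if they were matched across arms.

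Values are log2 signals as deposited, between 1.56 and 13.4, with array medians from 6.14 to 6.27. The ALA array of passage 7 stood apart from the rest, correlating over all clusters at 0.976 to 0.987 with the other 11, which correlated with each other at 0.989 to 0.994. Of the adipocyte markers listed, 17 of 18 lay above the median cluster of the array (6.19), with list means of 10.32 to 10.90. Markers of preadipocytes and fibroblasts were also bright, 12 of 14 above the median cluster. Only 1 of 11 macrophage and 1 of 8 endothelial markers lay above it. These are bulk RNA values, in which fewer cells of a type and less RNA per cell cannot be told apart.

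MMPs are zinc-dependent enzymes that cut collagens and other matrix proteins, either secreted or held at the cell surface, and most are made as inactive precursors. ADAMTS proteases are secreted relatives that cut proteoglycans or trim procollagen, and ADAMTS-like proteins share their binding domains but lack the protease. TIMPs bind the active enzymes and block them, and in fat the balance between proteases and inhibitors sets how the matrix around growing adipocytes is remodelled.

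The 48 genes covered nearly the whole range of array signal, and 23 of them lay above the median cluster. Signals of different clusters depend on their probes, so their order describes signal and not transcript number. Among secreted MMPs, 4 of 15 were above the median cluster: Mmp2, the gelatinase A, at 11.03 ± 0.20 (SD over 12 arrays, here and in the rest of this description), Mmp19 at 10.51 ± 0.14, Mmp11, also known as stromelysin 3, at 8.77 ± 0.19, and Mmp28, the epilysin, at 7.66 ± 0.19. Mmp2 stood above 97.5% of all clusters. Of the 6 membrane MMPs, Mmp14, the surface collagenase that also activates the Mmp2 precursor, measured 10.32 ± 0.28 and Mmp23 measured 7.49 ± 0.22. The other 11 secreted and 4 membrane MMPs were below the median cluster. They included Mmp13, Mmp12, Mmp1b, Mmp3, Mmp1a, Mmp10, Mmp8, Mmp20 and Mmp7, which lie in 1 cluster of MMP genes on chromosome 9 and had means from 2.91 to 5.17. Mmp9 (the gelatinase B), Mmp16, Mmp17, Mmp21, Mmp24 and Mmp25 had means from 4.77 to 5.60.

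Proteases that cut proteoglycans were better represented, with 5 of 7 above the median cluster. Adamts1, a versican-cleaving enzyme, measured 10.08 ± 0.15, and its chromosome 16 neighbour Adamts5, a main aggrecanase, measured 8.75 ± 0.23. Adamts9 measured 9.08 ± 0.10, Adamts4, the other main aggrecanase, 6.33 ± 0.39 and Adamts15 6.30 ± 0.18, while Adamts8 and Adamts20 were below the median cluster. Of the procollagen-trimming enzymes, Adamts14 measured 6.73 ± 0.14 and Adamts3 averaged 2.93, close to the lowest signal of the families. In the remaining ADAMTS group, Adamts12 measured 9.32 ± 0.08, Adamts10, a fibrillin-binding member, 8.09 ± 0.21, Adamts7 6.90 ± 0.12 and Adamts6 6.22 ± 0.26. Adamts13, Adamts16, Adamts17, Adamts18 and Adamts19 were below the median cluster. The ADAMTS-like genes Adamtsl4 (8.50 ± 0.22), Adamtsl5 (7.87 ± 0.17), Adamtsl2 (6.45 ± 0.14) and Adamtsl1 (6.33 ± 0.20) lay above it, and Adamtsl3 at 5.56 lay below.

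All 4 inhibitors gave signal near or above the median cluster. Timp2, which blocks MMPs and also takes part in the activation of Mmp2 by Mmp14, measured 9.80 ± 0.45. Timp1, a secreted inhibitor of most MMPs, measured 7.90 ± 0.38, and Timp4, the family member known for its presence in fat and heart, 7.85 ± 0.35. Timp3, the matrix-bound inhibitor that also blocks ADAM and ADAMTS enzymes, measured 6.15 ± 0.36, just under the median cluster. The median SD over the 12 arrays was 0.23 for the 48 genes and 0.21 for all clusters, and the SD of each of the 4 inhibitors was above both.

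**Figure D1:**
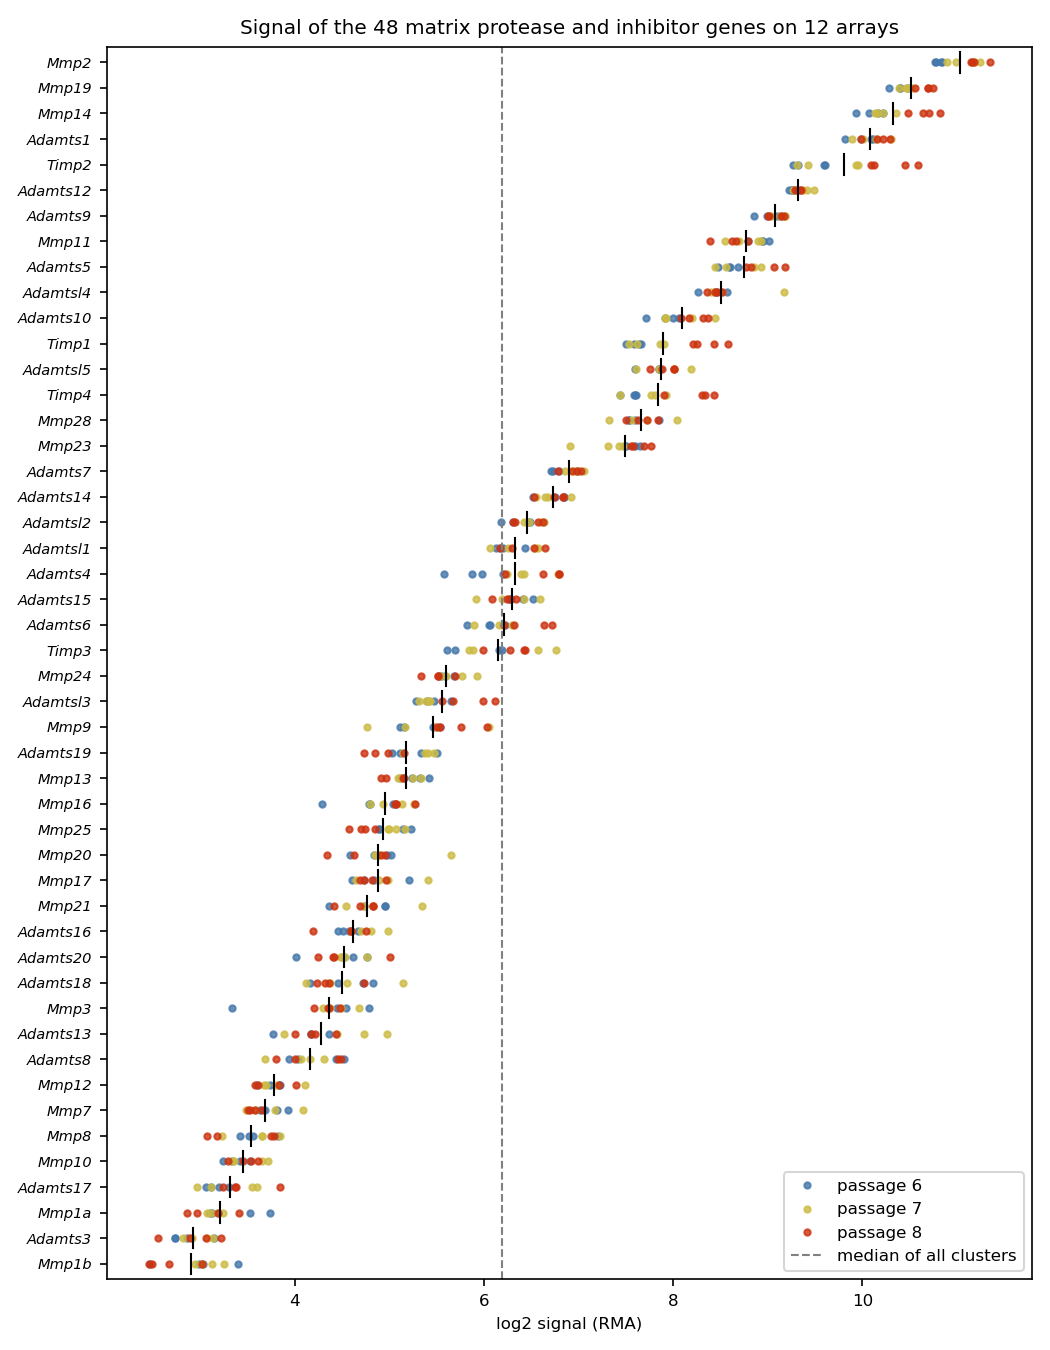
Log2 signal (horizontal axis) of each of the 48 genes on the 12 arrays, ordered by mean; points are arrays coloured by passage, black ticks are means and the dashed line is the median of all clusters (6.19). Mmp2 averages 11.03 at the top and Mmp1b 2.91 at the bottom, and 23 genes lie to the right of the line.

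Of the comparisons made, that of passage 8 with passage 6 was the one in which genes of these families were called. The series design does not list this comparison, but the labels give each array's passage, and each passage holds every treatment once. Timp2, Timp1, Timp4, Mmp14 and Mmp2 rose from passage 6 to passage 8 at an adjusted p under 0.05 (limma, treatment held fixed, adjusted over all clusters), by 1.82, 1.71, 1.61, 1.48 and 1.32 times. These were 5 of 48 genes, or 10.4%, against 1.91% of all clusters called in either direction and 1.31% called higher. None of the 48 was called lower, against 0.602% of all clusters. The arrays of 1 passage may share a culture history, so passage and culture batch cannot be told apart. With treatment held fixed, p measures how the passage difference varied across treatments, not the spread between repeat cultures of a passage.

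Of the 5 called genes 3 were inhibitors. In the values that follow, arrays are listed in the order control, ALA, inhibitor and both. Timp2 measured 9.60, 9.60, 9.32 and 9.27 at passage 6, 9.96, 9.93, 9.42 and 9.31 at passage 7 and 10.45, 10.58, 10.09 and 10.12 at passage 8. In every treatment Timp2 was lowest at passage 6, intermediate at passage 7 and highest at passage 8, and passages 6 and 8 did not overlap. Such an order in 4 of 4 treatments held for Timp2 alone among the 48 genes and for 0.728% of all clusters. The difference between passages 8 and 6 was 0.87 (SE 0.09, adjusted p = 0.00336, limma).

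Timp1 measured 7.64, 7.67, 7.51 and 7.58 at passage 6, 7.53, 7.86, 7.90 and 7.61 at passage 7 and 8.58, 8.25, 8.43 and 8.21 at passage 8. All 4 arrays of passage 8 were above the 8 others. At passage 7 the control array and that of both lay within the passage 6 range and the ALA and inhibitor arrays above it. The difference was 0.77 (SE 0.12, adjusted p = 0.0107, limma). Timp4 measured 7.59, 7.44, 7.59 and 7.61 at passage 6, 7.80, 7.92, 7.44 and 7.76 at passage 7 and 8.43, 8.33, 8.31 and 7.90 at passage 8. Passages 6 and 8 were again apart, with the array of both at passage 8 the lowest of its passage. Timp4 differed by 0.68 (SE 0.13, adjusted p = 0.0316, limma).

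Timp3 measured 6.16, 6.20, 5.61 and 5.69 at passage 6, 6.58, 6.76, 5.84 and 5.89 at passage 7 and 6.27, 6.44, 6.42 and 5.99 at passage 8. Timp3 was higher at passage 8 in 4 of 4 treatments, but the 2 passages overlapped, and most of the difference came from the inhibitor arm (0.81 against 0.12 to 0.30 in the others), so that it was 0.20 without the inhibitor array of passage 8. Its difference of 0.37 did not pass (SE 0.14, adjusted p = 0.263, limma). Timp1, Timp4 and Timp3 overlap the synapsin genes Syn1, Syn2 and Syn3 in the RefSeq gene table, and these differed by 0.18, 0.05 and -0.13 between passages 8 and 6 (unadjusted p = 0.301, 0.638 and 0.46, limma).

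**Figure D2:**
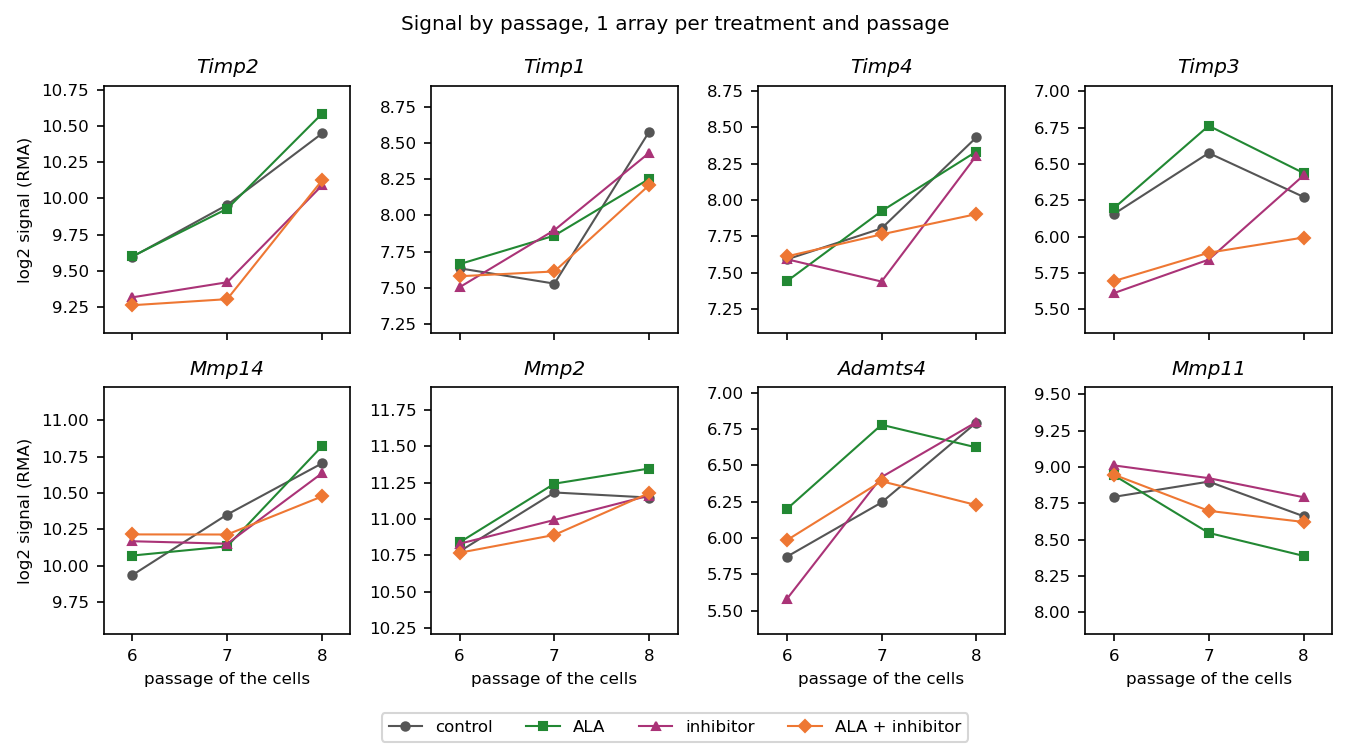
Log2 signal (vertical axis, the same span in each panel) against passage for the 4 TIMP genes, Mmp14, Mmp2, Adamts4 and Mmp11; each point is 1 array, and lines join the arrays of a treatment. Timp2 rises in order in all 4 treatments, Timp3 does not separate passages 6 and 8, and Mmp11 runs from 8.92 on average at passage 6 to 8.62 at passage 8.

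The surface activator and its substrate accompanied them. Mmp14 measured 9.94, 10.07, 10.17 and 10.22 at passage 6, 10.35, 10.13, 10.15 and 10.21 at passage 7 and 10.71, 10.82, 10.64 and 10.48 at passage 8. The passage 8 arrays all exceeded the passage 6 arrays. The step was larger in control and ALA (0.77 and 0.75) than in the inhibitor and both arms (0.47 and 0.26), a contrast between arms that was not tested. Mmp14 differed by 0.56 (SE 0.11, adjusted p = 0.033, limma). Mmp2 measured 10.78, 10.84, 10.83 and 10.77 at passage 6, 11.18, 11.24, 10.99 and 10.89 at passage 7 and 11.15, 11.35, 11.16 and 11.18 at passage 8. Mmp2 separated passage 6 from passage 7 as well as from passage 8. It differed by 0.41 between passages 8 and 6 (SE 0.09, adjusted p = 0.0479, limma).

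Of these calls, that of Timp2 held under every alternative run, with adjusted p between 1.93e-06 and 0.0236. Each other call was lost when some single arrays were left out, and the number of called genes then ranged from 1 to 5. It was 1 without the inhibitor array of passage 6 or of passage 8, where the adjusted p of Timp1 was 0.0509 and 0.0524. It was 2 without the control array of passage 6 or 8, the ALA array of passage 6 or 8 or the array of both of passage 6, and 3 without the control, inhibitor or both array of passage 7. It was 4 without the array of both of passage 8 and 5 without the ALA array of passage 7. Mmp2 also lost its call with quantile normalization (adjusted p = 0.0657, limma). With an intensity trend in the variance 9 genes were called, 8 of them higher. The share of all clusters called also moved, from 1.91% with all arrays to 2.68% without the ALA array of passage 7. For the other alternatives that share is not given here, so their counts describe the 48 genes only.

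At an unadjusted p under 0.01, the threshold the series design names, 12 of the 48 genes (25.0%) differed between passages 8 and 6 against 5.95% of all clusters, 10 of them higher. Adamts4 measured 5.87, 6.20, 5.58 and 5.98 at passage 6, 6.24, 6.78, 6.42 and 6.39 at passage 7 and 6.79, 6.62, 6.80 and 6.23 at passage 8. Adamts4 was lowest at passage 6 in every treatment, and its passages 6 and 8 were separated by a narrow gap. The difference was 0.70 (SE 0.16, adjusted p = 0.0557, limma), and it passed with array weights, an intensity trend, no treatment term or the dimmest clusters left out (adjusted p = 0.0423, 0.0111, 0.0477 and 0.0309).

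Adamts5, the other aggrecanase, measured 8.47, 8.60, 8.59 and 8.69 at passage 6, 8.85, 8.93, 8.56 and 8.44 at passage 7 and 9.07, 9.19, 8.82 and 8.77 at passage 8. It separated passages 6 and 8 (difference 0.37, adjusted p = 0.156, limma), though the array of both was only 0.08 higher. Mmp19 measured 10.49, 10.40, 10.28 and 10.40 at passage 6, 10.47, 10.46, 10.53 and 10.39 at passage 7 and 10.74, 10.69, 10.70 and 10.55 at passage 8. Mmp19, which cuts basement membrane proteins, was 0.28 higher (adjusted p = 0.134, limma) with no overlap.

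Adamts6 measured 5.82, 6.22, 6.06 and 6.06 at passage 6, 6.30, 6.16, 6.21 and 5.90 at passage 7 and 6.72, 6.64, 6.32 and 6.21 at passage 8. Adamtsl3 measured 5.65, 5.48, 5.28 and 5.40 at passage 6, 5.31, 5.43, 5.42 and 5.39 at passage 7 and 5.68, 6.12, 5.56 and 5.99 at passage 8. Both genes were higher at passage 8 in 4 of 4 treatments (differences 0.43 and 0.39, adjusted p = 0.134 and 0.159, limma), and in both the passages overlapped. The step of Adamts6 was largest in control (0.90) and that of Adamtsl3 in ALA (0.64).

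A pair of MMP genes ran the other way. Mmp11 measured 8.79, 8.94, 9.01 and 8.95 at passage 6, 8.90, 8.55, 8.92 and 8.70 at passage 7 and 8.66, 8.39, 8.79 and 8.62 at passage 8. Mmp25 measured 5.23, 5.14, 4.89 and 4.89 at passage 6, 5.00, 5.16, 5.07 and 4.99 at passage 7 and 4.74, 4.70, 4.57 and 4.85 at passage 8. Mmp11, an MMP known from stromal cells, and Mmp25, a membrane-anchored MMP known from leukocytes, were lower at passage 8 without overlap. Their differences were -0.31 and -0.32 (adjusted p = 0.166 for each, limma).

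Across all 48 genes the difference between passages 8 and 6 was above 0 in 31 (64.6%) and below 0 in 17, against 47.1% of all clusters above 0, with a median of 0.07 against -0.01 over all clusters. In 17 genes (35.4%) passage 8 was higher in every treatment, against 13.4% of all clusters, and in 3 genes lower in every treatment, against 12.5%. Passages 6 and 8 did not overlap in 11 genes that were higher, against 7.13% of all clusters, and in 2 that were lower, against 5.35%. By role, 4 of 4 TIMPs and 5 of 5 ADAMTS-like genes were above 0, the latter with a median of 0.13, while 7 of 15 secreted MMPs, 3 of 6 membrane MMPs, 5 of 7 proteoglycan-cleaving, 6 of 9 other and 1 of 2 procollagen-trimming ADAMTS genes were.

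**Figure D3:**
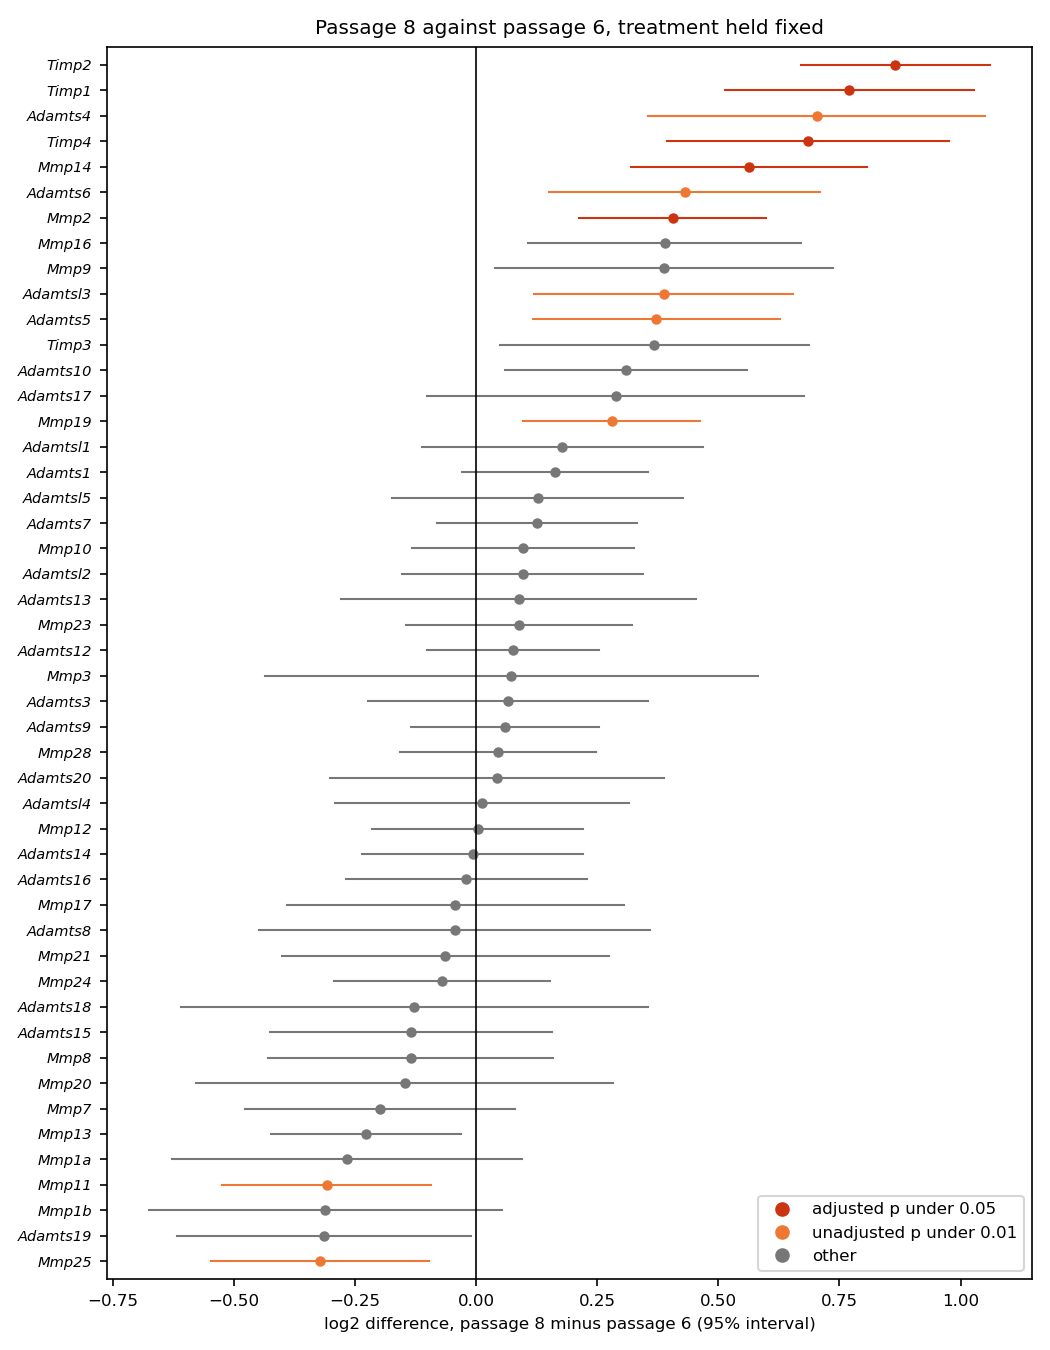
Log2 difference between passage 8 and passage 6 (horizontal axis) with its 95% interval for each of the 48 genes, treatment held fixed; red marks an adjusted p under 0.05 and orange an unadjusted p under 0.01. Timp2, Timp1, Timp4, Mmp14 and Mmp2 are red, from 0.87 down to 0.41, and Mmp25 and Mmp11 are the orange points below 0.

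The promoters of the 4 called genes that the RefSeq table holds are shown because these genes rose together. Each is the 250 bases before the transcript start, written 5′ to 3′ on the gene's strand in build GRCm38.p6: Timp2 at chr11:118355412-118355661, minus strand, Timp1 at chrX:20869916-20870165, plus strand, Timp4 at chr6:115252206-115252455, minus strand, and Mmp14 at chr14:54431348-54431597, plus strand. Capitals mark matches on either strand to the AP-1 motif TGANTCA, the GC box GGGCGG, the CCAAT box CCAAT, the TATA box TATAAA and the TEAD motif GGAATG, and matches may overlap.
Timp2: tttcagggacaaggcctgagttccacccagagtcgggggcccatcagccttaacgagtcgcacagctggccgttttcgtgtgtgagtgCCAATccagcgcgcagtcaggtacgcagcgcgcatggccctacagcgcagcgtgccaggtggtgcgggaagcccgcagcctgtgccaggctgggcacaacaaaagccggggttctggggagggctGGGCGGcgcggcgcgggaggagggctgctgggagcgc
Timp1: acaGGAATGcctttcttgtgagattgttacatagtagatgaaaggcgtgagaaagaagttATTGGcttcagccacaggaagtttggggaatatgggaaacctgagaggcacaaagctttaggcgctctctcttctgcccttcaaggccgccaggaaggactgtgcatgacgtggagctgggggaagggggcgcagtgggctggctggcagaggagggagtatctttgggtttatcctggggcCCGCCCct
Timp4: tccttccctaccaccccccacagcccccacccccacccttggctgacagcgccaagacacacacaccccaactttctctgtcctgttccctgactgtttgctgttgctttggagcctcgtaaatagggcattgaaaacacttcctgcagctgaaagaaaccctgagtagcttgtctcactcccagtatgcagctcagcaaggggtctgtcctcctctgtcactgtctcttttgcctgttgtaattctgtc
Mmp14: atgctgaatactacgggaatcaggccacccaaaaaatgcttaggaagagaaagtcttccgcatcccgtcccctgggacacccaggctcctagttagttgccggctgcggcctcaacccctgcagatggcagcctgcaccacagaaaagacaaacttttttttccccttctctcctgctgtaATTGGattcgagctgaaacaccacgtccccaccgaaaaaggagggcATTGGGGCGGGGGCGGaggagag
The Timp2 window holds 1 GC box and 1 CCAAT box, that of Timp1 1 of each and 1 TEAD match, that of Mmp14 2 GC boxes and 2 CCAAT boxes, and that of Timp4 none of the 5. Among 32851 promoter windows of this length, 32.7% hold the GC box, 33.8% the CCAAT box and 12.6% the TEAD motif, so these matches are common. The table held promoters for 33 of the 48 genes, in 36 windows.

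The AP-1 motif, in contrast, was found in 8 of the 36 windows, against 6.75% of all windows, and all 8 belonged to the low-signal genes of chromosome 9 (Mmp13, Mmp20, Mmp3, Mmp12, Mmp7, Mmp10, Mmp1a and Mmp1b). The window of Mmp3, also known as stromelysin 1, at chr9:7445572-7445821, plus strand, is given as the example, with 1 AP-1 match and 1 TATA box in capitals. The TATA box stands in 10 of the 36 windows and 12.4% of all. A match is a run of letters, not evidence of binding.
Mmp3: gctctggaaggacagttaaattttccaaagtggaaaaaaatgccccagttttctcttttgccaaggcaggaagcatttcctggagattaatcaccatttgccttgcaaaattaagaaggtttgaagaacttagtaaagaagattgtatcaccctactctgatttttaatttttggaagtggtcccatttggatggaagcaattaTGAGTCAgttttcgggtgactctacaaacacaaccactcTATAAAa

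Genes that act with these families were read from lists of the same passages. Matrix proteins, the substrates, were above 0 in 25 of 28, with 4 called higher and none lower, against the 47.1% above 0, 1.31% called higher and 0.602% called lower among all clusters, which are the shares to read the other lists against too: on the log2 scale the collagen-binding proteoglycan genes Lum and Dcn rose by 1.09 and 0.84 and the collagen gene Col1a1 by 0.48 (adjusted p = 0.00138, 0.00464 and 0.0159, limma). Col1a2 was the fourth, at 0.38. Other protease inhibitors and MMP regulators, a list that also holds genes of procollagen cleavage, were above 0 in 15 of 21. In this list 3 were called higher: Pcolce2 (0.77) and Pcolce (0.44), which enhance procollagen cleavage, and Thbs1 (0.64). Of 10 membrane ADAM proteases, 9 were above 0 and Adam12 was called (0.52). Of 15 cathepsins and other matrix-degrading enzymes, 12 were above 0 and Prss23 was called (1.09). In the plasminogen system, which activates MMP precursors, 5 of 9 were above 0 and none was called. Plat, the tissue activator, differed by 0.44 and Plaur, the urokinase receptor, by 0.43 (adjusted p = 0.0571 and 0.0893, limma). At an unadjusted p under 0.01, 3 of the 9 were higher and 1 lower (limma), against 3.58% and 2.37% of all clusters.

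Cell type markers moved over the same passages. Preadipocyte and fibroblast markers were above 0 in 13 of 14, with 6 called higher (47.1% and 1.31% of all clusters, as above), led by Acta2 (1.54), Postn (0.72) and Tagln (0.78), and their mean ran from 8.75 to 8.97 at passage 6 and from 9.18 to 9.35 at passage 8. Adipocyte markers were above 0 in 17 of 18, with Car3 (0.90), Pck1 (0.92) and Lep (0.62) called, and their mean ran from 10.32 to 10.73 at passage 6 and from 10.73 to 10.90 at passage 8. Macrophage markers stayed low at both passages, 4.51 to 4.70 and 4.52 to 4.66, with 7 of 11 above 0 and none called, and endothelial markers ran from 4.65 to 4.97 and from 4.69 to 4.86, with 4 of 8 above 0 and none called. The part of these marker shifts in the protease and inhibitor differences was not tested.

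Between passages 7 and 6 none of the 48 genes and 0% of clusters were called. At an unadjusted p under 0.05 there were 7 of 48 against 9.29% of all clusters, and at 0.01 there was 1, Adamts4 (0.55, adjusted p = 0.459, limma), against 2.09%. Mmp2 was 0.27 higher and Mmp23 0.28 lower on the log2 scale, each without overlap, and the Mmp23 difference was -0.18 without the inhibitor array of passage 7. Mmp23 measured 7.50, 7.59, 7.49 and 7.65 at passage 6, 7.43, 7.31, 6.91 and 7.47 at passage 7 and 7.69, 7.77, 7.55 and 7.57 at passage 8. The difference was above 0 in 39 of 48 genes and below 0 in 9, against 51.1% of clusters above 0. Without the ALA array of passage 7, 15 genes were below 0. Timp2, Timp3, Timp4 and Timp1 differed by 0.21, 0.35, 0.17 and 0.13.

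The treatment comparisons asked what ALA and the desaturase inhibitor did to these genes. No gene of the 48, and 0% of all clusters, passed an adjusted p under 0.05 in any of the 5 (limma), also with passage as a block. What follows are values that did not pass, in the order of passages 6, 7 and 8.

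With the inhibitor the lower values of Timp2, Timp3, Mmp9, Mmp28 and Adamts1 recurred across passages. They were not the only ones. Adamts9 was also lower in 6 of 6 passage pairs (mean difference -0.11), and Adamts10, Mmp16 and others in 5 of 6, as Timp3 was. Timp2 measured 9.60, 9.96 and 10.45 in control, 9.60, 9.93 and 10.58 with ALA, 9.32, 9.42 and 10.09 with the inhibitor and 9.27, 9.31 and 10.12 with both. In 6 of 6 pairs of arrays of the same passage Timp2 was lower with the inhibitor, by 0.28, 0.53 and 0.36 without ALA and by 0.34, 0.62 and 0.46 with it. The mean differences were -0.39 and -0.47 (SE 0.31 each, adjusted p = 0.998 and 0.727, limma), a spread that holds the passage difference described above. These means move with single arrays: the first was -0.17 without the control array of passage 8, -0.24 and -0.63 without the inhibitor arrays of passages 6 and 8 and -0.59 without the control array of passage 6. The second was -0.20 without the ALA array of passage 8 and -0.75 without the array of both of that passage. With passage as a block the unadjusted p for Timp2 fell from 0.233 to 0.00321 without ALA, and its adjusted p was 0.563.

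Timp3 measured 6.16, 6.58 and 6.27 in control, 6.20, 6.76 and 6.44 with ALA, 5.61, 5.84 and 6.42 with the inhibitor and 5.69, 5.89 and 5.99 with both. Timp3 was lower with the inhibitor in 5 of 6 pairs, the exception being passage 8 without ALA. With ALA the 2 groups did not overlap (difference -0.61, SE 0.21, adjusted p = 0.653, limma), and without ALA they did (-0.38, adjusted p = 0.998). The latter was -0.20 without the inhibitor array of passage 6 and -0.61 without that of passage 8. Mmp9 measured 5.53, 5.49 and 6.03 in control, 5.47, 6.06 and 5.75 with ALA, 5.12, 5.17 and 5.51 with the inhibitor and 5.16, 4.77 and 5.54 with both. Mmp9 was lower in 6 of 6 pairs, by 0.42 on average without ALA and 0.61 with it, the latter carried by passage 7, where the pair differed by 1.29. Without the ALA array of passage 7 that difference was -0.46, and the one without ALA was -0.25 without the control array of passage 8.

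Mmp28 measured 7.60, 7.73 and 7.72 in control, 7.85, 8.04 and 7.84 with ALA, 7.53, 7.57 and 7.63 with the inhibitor and 7.53, 7.32 and 7.50 with both. Mmp28 was likewise lower in 6 of 6 pairs, slightly without ALA (-0.11) and more with it (-0.46, SE 0.11, unadjusted p = 0.00106, adjusted p = 0.653, limma), where the groups did not overlap. It was the 1 gene of the 48 at an unadjusted p under 0.01 with both against ALA, against 1.47% of all clusters. Adamts1 measured 10.11, 10.14 and 10.22 in control, 10.09, 10.30 and 10.29 with ALA, 9.81, 10.00 and 10.15 with the inhibitor and 9.99, 9.89 and 9.98 with both. Adamts1 was lower in 6 of 6 pairs too, with differences of -0.17 and -0.27, the first of which was -0.083 without the inhibitor array of passage 6.

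**Figure D4:**
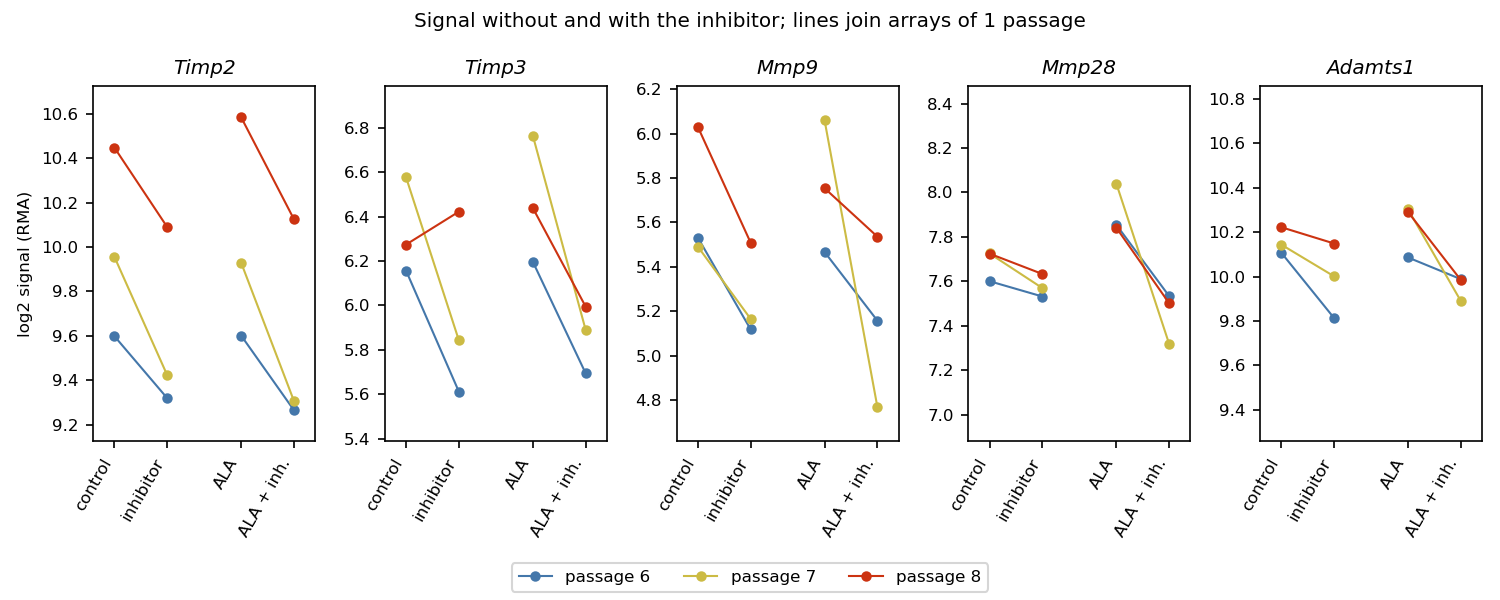
Log2 signal (vertical axis, the same span in each panel) of Timp2, Timp3, Mmp9, Mmp28 and Adamts1 without and with the inhibitor, in control medium (left pair) and with ALA (right pair); lines join the 2 arrays of a passage. All 6 lines slope down for Timp2, Mmp9, Mmp28 and Adamts1, and 5 of 6 for Timp3.

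Inhibitor against control gave a difference below 0 in 35 of 48 genes, against 50.8% of all clusters, and a median of -0.08 against -0.0032 over all clusters. When each array was centred on its own median the count was 25 and the median -0.027, while that of all clusters moved to 0.05. How many genes fell below 0 thus depended on the scaling. With either scaling the median of the 48 genes lay below that of all clusters. The share of all clusters below 0 after centring is not given here. None of the 48 was at an unadjusted p under 0.01 (0.855% of clusters) or under 0.05 (4.32%), and with passage as a block 1 gene, Timp2, was under 0.01 (1.46% of clusters). Among the genes with the smallest p, Mmp16, a membrane MMP, measured 5.04, 4.93 and 5.28 in control and 4.29, 4.80 and 5.07 with the inhibitor, lower in each passage but overlapping (-0.37, adjusted p = 0.998, limma), and -0.15 without the low inhibitor array of passage 6. The collagenase gene Mmp13 went from 5.11, 5.10 and 4.92 to 5.42, 5.25 and 5.15, higher without overlap (0.23, adjusted p = 0.998).

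Both against ALA gave a difference below 0 in 37 of 48, against 53.4% of clusters, with a median of -0.13 against -0.02. Without the ALA array of passage 7 it was 30 of 48. At an unadjusted p under 0.05 there were 4 genes against 7.27% of clusters. With passage as a block 4 genes were under 0.01 (2.54% of clusters). Groups were apart and lower in 6 genes, against 6.85% of clusters. Mmp3 and Mmp10 had the smallest p among the higher genes. Mmp3 measured 3.34, 4.50 and 4.35 with ALA and 4.54, 4.68 and 4.36 with both, a difference of 0.47 that was 0.10 without the low ALA array of passage 6. Mmp10, also known as stromelysin 2, measured 3.34, 3.36 and 3.30 with ALA and 3.53, 3.66 and 3.54 with both (0.24, adjusted p = 0.693, limma).

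The comparisons of inhibitor against control and of both against ALA share no arrays. In 29 of 48 genes (60.4%) both differences were below 0, against 32.7% of all clusters, and in 5 (10.4%) both were above 0, against 28.6%. The counts of the single comparisons moved with centring or without the ALA array of passage 7, as given above. The joint count under these changes is not given here. Lower in 6 of 6 passage pairs were 5 genes, Mmp9, Adamts9, Timp2, Adamts1 and Mmp28, against 4.52% of clusters, and higher in 6 of 6 was 1 gene, Mmp11, against 3.84%. Mmp11 was 0.13 higher on average. Averaged over both media, a comparison added after the data were seen, 3 genes were at an unadjusted p under 0.01 against 1.9% of clusters: Mmp28 (-0.28), Timp3 (-0.49) and Mmp9 (-0.51), with adjusted p = 0.496 for each (limma). Without the ALA array of passage 7, 1 of the 48, Mmp28, was under 0.01, against 1.41% of clusters. With passage as a block the adjusted p of Timp2 (-0.43) went from 0.59 to 0.106, and 8 clusters (0.0362%), none of them among the 48 genes, were called.

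**Figure D5:**
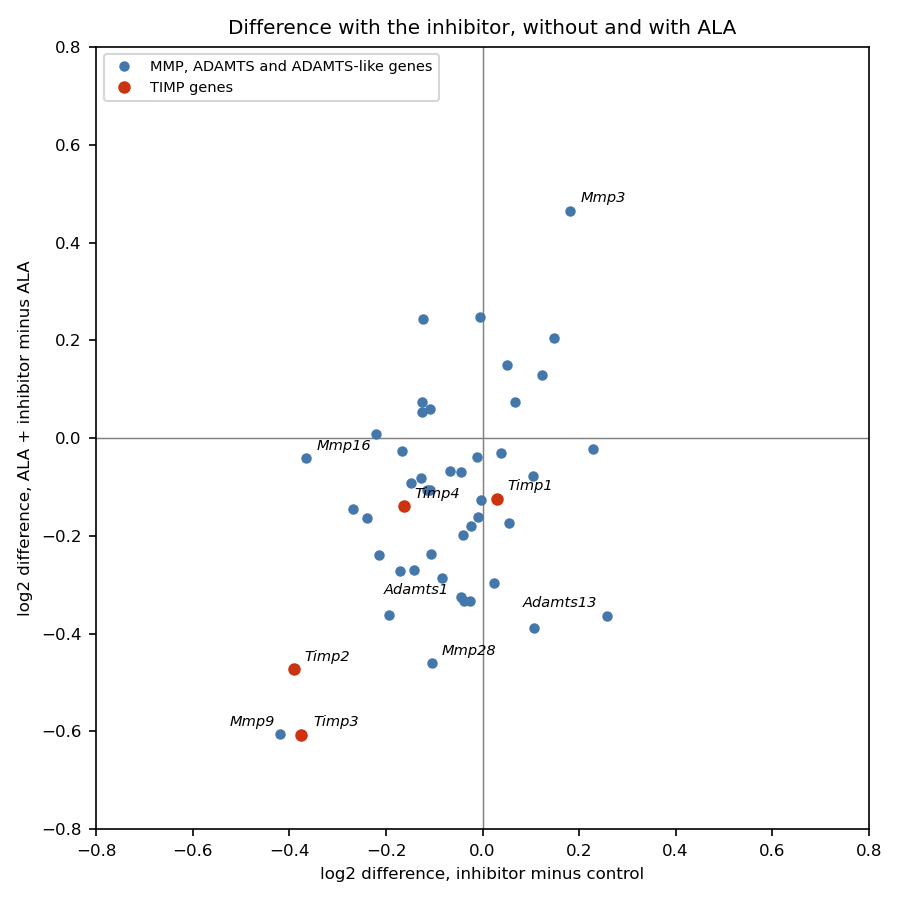
Log2 difference of inhibitor minus control (horizontal axis) against that of ALA plus inhibitor minus ALA (vertical axis) for the 48 genes, with TIMP genes in red. The lower left of the plot holds 29 genes, with Timp2, Timp3 and Mmp9 farthest from 0, and the upper right holds 5.

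Of the accompanying lists in the same comparisons none had a called gene, and counts below 0 are read against 50.8% and 53.4% of all clusters. Other inhibitors and regulators were below 0 in 16 of 21 with inhibitor against control and 19 of 21 with both against ALA, matrix substrates in 18 of 28 in each, and plasminogen genes in 4 of 9 and 6 of 9. Membrane ADAM proteases were below 0 in 4 of 10 and 6 of 10. Of these 10, Adam8 was at an unadjusted p under 0.01 in each comparison, against 0.855% and 1.47% of clusters (-0.46 and -0.44, unadjusted p = 0.00339 and 0.00497, limma). Preadipocyte and fibroblast markers were below 0 in 12 of 14 and 13 of 14, and adipocyte markers in 14 of 18 and 12 of 18. With both against ALA, 2 of the 18 adipocyte markers were lower at an unadjusted p under 0.01 and none higher (limma). The shares of all clusters were 0.973% lower and 0.498% higher. The lowest difference among the adipocyte markers was -1.44, which was also the lowest over all clusters. The list means of preadipocyte and fibroblast markers ran from 8.97 to 9.33 in control, 8.96 to 9.35 with ALA, 8.80 to 9.21 with the inhibitor and 8.75 to 9.18 with both, which overlap. Macrophage markers were below 0 in 8 of 11 and 7 of 11, with list means from 4.51 to 4.89 over all arrays. Endothelial markers were below 0 in 6 of 8 and 5 of 8. With inhibitor against control, 1 of the 8 was lower at an unadjusted p under 0.01 and none higher (limma). The shares of all clusters were 0.534% lower and 0.321% higher. The part of these lists in the values above was not tested.

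ALA against control gave little in these genes. The difference was above 0 in 32 of 48 against 52.2% of clusters, but in 24 of 48 without the ALA array of passage 7, and the median was 0.05 against 0.01. No gene was under an unadjusted p of 0.01 (0.525% of clusters) and 2 were under 0.05 (3.41%). Mmp8 measured 3.52, 3.85 and 3.75 in control, 3.42, 3.23 and 3.18 with ALA, 3.83, 3.66 and 3.79 with the inhibitor and 3.56, 3.65 and 3.07 with both. Mmp8, a collagenase known from neutrophils, was lower with ALA than in control without overlap (-0.43, adjusted p = 1, limma), and all its values lay near the bottom of the array's range. Adamts13 lay between 3.89 and 4.17 in control and measured 4.36, 4.98 and 4.44 with ALA, 4.18, 4.45 and 4.21 with the inhibitor and 3.77, 4.74 and 4.18 with both. Adamts13, the von Willebrand factor protease, was higher with ALA in 3 of 3 passages without overlap (0.57, adjusted p = 1, limma), by most at passage 7, and the difference was 0.38 without the ALA array of that passage. The TIMP genes differed little with ALA: Timp3 by 0.13, Timp2 by 0.04, Timp1 by 0.01 and Timp4 by -0.04, each within the spread of the arrays.

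Both against the inhibitor alone placed 19 of 48 genes above 0, against 48.1% of clusters, with none under an unadjusted p of 0.01 (0.728%) or 0.05 (3.56%). Mmp8 was 0.33 lower on average, with a difference of -0.0065 at passage 7, and the mean was -0.15 without the array of both of passage 8. Mmp24, a membrane MMP, was 0.19 lower, from 5.68, 5.76 and 5.52 with the inhibitor to 5.52, 5.54 and 5.33 with both. Adamts20 went from 4.62, 4.49 and 4.25 to 4.76, 4.53 and 5.01 and Mmp21 from 4.37, 4.73 and 4.42 to 4.95, 4.83 and 4.69, each about 0.31 to 0.32 higher with overlap. Without the array of both of passage 8 the difference was 0.19 for Adamts20 and -0.12 for Mmp24. This comparison and that of ALA against control share no arrays. In both, 9 genes (18.8%) were below 0, against 26% of all clusters, and 12 (25%) above 0, against 26.2%. The sign was opposite in 27 of 48 genes and in 10571 of 22104 clusters.

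The interaction asks whether the inhibitor's difference changes with ALA. No gene was under an unadjusted p of 0.01, against 0.638% of clusters, and 1 was under 0.05, against 3.42%. That gene was Mmp28, whose difference was 0.36 lower with ALA than without it (95% interval -0.69 to -0.02, adjusted p = 1, limma). The intervals for Timp2, Timp3 and Mmp9 span 0, so a change of the inhibitor's difference with ALA was not detectable in them with these arrays.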

How the data were processed

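The data are 12 whole-transcript arrays. The log2 values used here are those the authors deposited. The submitters' processing notes name RMA, a method that subtracts background, brings arrays to 1 distribution and summarises the probes of a cluster, and that compresses differences between dim clusters. The array's build and the software are not given in the sources used here. Arrays have no read depth, and their number limits the precision.

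Symbols came from GEO's platform annotation (19509 clusters with 1 symbol, 2595 unnamed here), and all 48 genes matched the RefSeq gene table. Adamts2, Mmp15 and Mmp27 were not analysed here. No gene had a further cluster, so the lowest-mean alternative gave no other value.

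Tests used limma 3.58.1 in R 4.3.3 on all 22104 clusters without a filter, two-sided, with Benjamini-Hochberg adjustment. Treatments were fitted with 1 coefficient per arm on 12 arrays (8 residual degrees of freedom), passages with treatment as a term (6). A call is an adjusted p under 0.05; counts at an unadjusted p under 0.01, the cutoff in the design text, stand beside it. The scripts were tested on simulated data. Genes given on every array are, per comparison, the 2 higher and 2 lower with the smallest p, those under 0.01 anywhere, and the TIMPs. The genes, lists and rules were chosen with earlier results of these data known.

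The labels give passage as the replicate number, so differences are also given for pairs of arrays of the same passage. The main treatment tests did not use this pairing, and only the alternative with passage as a block did. In a check of deviations from treatment means, 13 of 18 same-passage pairs correlated above 0.1 (range -0.05 to 0.46, median 0.16, against -0.11 for other pairs). Alternatives were a passage block, array weights, an intensity trend, other scalings, a filter on dim clusters, fewer groups, and each array or passage left out.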

Additional observations from a re-analysis of the deposited data

Results flagged for a closer look

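The difference made by the inhibitor to Adamts13 had opposite signs in the 2 media on every passage pair: it was higher with the inhibitor in control medium (0.26) and lower with ALA (-0.36), which gives an interaction of -0.62 (unadjusted p = 0.0701, adjusted p = 1, limma). The interaction did not pass, and without the ALA array of passage 7 it was -0.43. In control medium the difference at passage 6 was only 0.0054, so the sign of that pair carries little. The mean signal of Adamts13 was 4.28, below the median cluster.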

How the results depend on the processing

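With passage as a replicate block, the count of genes at an unadjusted p under 0.01 was 1 for inhibitor against control and 4 for both against ALA, and the block changed no call at an adjusted p under 0.05 among the 48 genes. With only the compared arrays fitted, both against ALA gave 2. With arrays centred on their medians, the median for inhibitor against control was -0.027, and that of all clusters rose as well. For passage 8 against 6, an intensity trend gave 9 calls (the share of all clusters is not given here). Leaving out the dimmest 30% of clusters, which removes genes, gave a median of 0.127. For passage 7 against 6, the count under 0.01 was 0 with array weights, 3 with an intensity trend, 2 with quantile normalization and 2 without dim clusters. Signs of small TIMP differences turned: with array weights Timp4 was 0.067 for ALA against control and 0.090 for both against the inhibitor, and with quantile normalization Timp1 was -0.0039 for inhibitor against control. The cause was not tested.

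Leaving out single arrays or 1 passage, counts under 0.01 ranged from 0 to 1 for ALA against control, inhibitor against control and the interaction. They ranged from 0 to 3 for both against ALA and passage 7 against 6. For the inhibitor averaged over both media they ranged from 0 to 4. For passage 8 against 6 they ranged from 6 to 11, and calls from 1 to 5. These counts are given without the shares of all clusters. Medians over the 48 genes ranged from -0.0081 to 0.142 for ALA against control, -0.222 to -0.0851 for both against ALA, -0.0603 to 0.0463 for both against the inhibitor, -0.15 to -0.011 for the interaction and 0.061 to 0.115 for passage 8 against 6. In the same fits, ALA against control ranged from -0.181 to 0.343 for Timp1, -0.235 to 0.261 for Timp2, -0.018 to 0.266 for Timp3 and -0.261 to 0.202 for Timp4. Fits without 1 array set arms of unlike passages against each other, so passage differences enter these treatment ranges. Both against ALA ranged from -0.328 to 0.039 for Timp1 and -0.369 to 0.078 for Timp4. Both against the inhibitor ranged from -0.363 to 0.099 for Timp1, -0.325 to 0.194 for Timp2, -0.273 to 0.133 for Timp3 and -0.192 to 0.244 for Timp4. Inhibitor against control ranged from -0.212 to 0.362 for Timp1 and -0.427 to 0.081 for Timp4, and the average over both media from -0.168 to 0.119 for Timp1. The interaction ranged from -0.486 to 0.088 for Timp1, -0.362 to 0.190 for Timp2, -0.404 to 0.0019 for Timp3 and -0.221 to 0.287 for Timp4.

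Each arm has 3 arrays of 1 cell line, so small differences were not detectable, and the chromosome 9 MMP genes lie below the median signal of the array.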
